A study of Homo sapiens with 26 samples.

Results

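The genes described here are 10 human genes that make, store, bind or export triglyceride. They are MTTP, MOGAT2, MOGAT3, DGAT1, DGAT2, CIDEB, CIDEC, FABP1, FABP2 and CREB3L3. They were chosen by symbol for their role in intestinal fat absorption and triglyceride packaging, with earlier results of the same libraries known. The differences below are therefore descriptions of these genes, and a count over the 10 supports nothing about them as a set. All 10 symbols matched an Ensembl identifier in each of the 3 count tables, which hold 62703 genes for Panc10.05, 62703 for BxPC3 and 62754 for ASPC1. After the filter on low counts, 7 of the 10 were tested in Panc10.05, 8 in BxPC3 and 8 in ASPC1. FABP1 was below the filter in every line, MTTP in Panc10.05 and ASPC1, and FABP2 in Panc10.05 and BxPC3.

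An enterocyte rebuilds triglyceride from absorbed fat. Fatty acid binding proteins carry fatty acids through the cytosol, monoacylglycerol acyltransferases add a fatty acid to monoacylglycerol, and diacylglycerol acyltransferases add the last one. The triglyceride is then stored in lipid droplets, which CIDE proteins enlarge, or loaded onto apolipoprotein B by the microsomal triglyceride transfer protein and secreted as chylomicrons, or as very low density lipoprotein in liver. HNF4α, the nuclear receptor encoded by HNF4A, is known for controlling such genes in liver and intestine, and its isoforms start at a pair of promoters, P1 and P2.

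RNA was sequenced from 26 libraries of 3 established human pancreatic ductal adenocarcinoma lines. Panc10.05 and BxPC3 cells received doxycycline, the inducer of the expression construct, to express the HNF4α isoform P1-a2 or P2-a8. Control cells, labelled NC, are titled GFP-NC for Panc10.05 and EV-NC for BxPC3, and received doxycycline too. All BxPC3 groups received 500 ng/mL. In Panc10.05, P1-a2 and NC received 25 ng/mL and P2-a8 received 12.5 ng/mL, so isoform and dose cannot be told apart there. Each of these 6 groups had 2 libraries. In ASPC1, which has HNF4A RNA of its own, CRISPR interference (a guide RNA that brings an inactive Cas9 to a promoter) was aimed at P1 with the guides sgP1E and sgP1J, at P2 with sgP2D and sgP2G, or at both isoforms with sgDual2 and sgDual3. Each guide had 2 libraries, so each target had 4, and the control sgNC had 2. No label gives a clone, a treatment time or separate cultures, so p-values measure the spread between these libraries, which may be technical. For a target in ASPC1 the 2 guides were pooled, so its 4 libraries are not 4 replicates of 1 guide. The spread within a target there includes differences between its guides.

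Library totals ran from 26079388 to 50662077 counts. HNF4A itself was measured at 0.0580 and 0.240 CPM (counts scaled to the size of each library) in Panc10.05 NC, 10.7 and 12.98 under P1-a2, and 37.6 in both P2-a8 libraries. In BxPC3 it was at 0.464 and 1.08 CPM in NC, 9.76 and 11.6 under P1-a2, and 12.6 and 14.2 under P2-a8. Induced HNF4A in Panc10.05 was thus higher with P2-a8 (log2 fold change of P1-a2 over P2-a8 -1.66 ± 0.10 SE, adjusted p = 5.02e-17), while in BxPC3 the isoforms' levels were -0.33 ± 0.17 apart (adjusted p = 0.217). In ASPC1, HNF4A averaged 213 CPM under sgNC, 129 under sgP1, 86.5 under sgP2 and 7.99 under sgDual. The log2 difference from sgNC passed under sgDual (-4.73 ± 0.39, adjusted p = 6.25e-06). It did not pass under sgP1 (-0.72 ± 0.36, adjusted p = 0.615) or sgP2 (-1.30 ± 0.36, adjusted p = 0.0751). Markers of pancreatic ductal epithelium were at 1 CPM or more in every library for 7 of 8 genes in Panc10.05, 8 of 8 in BxPC3 and 6 of 8 in ASPC1, and no adipocyte marker of 5 reached that in any line. The summed level of 8 enterocyte markers differed between groups, and in the induced groups VIL1 and ANPEP made up most of it. The sum ran from 0.504 to 0.609 CPM in Panc10.05 NC, 58.1 to 63.8 under P1-a2 and 23.9 to 25.0 under P2-a8. In BxPC3 the same sum ran from 2.05 to 3.50 CPM in NC, 208 to 254 under P1-a2 and 64.95 to 68.1 under P2-a8. In ASPC1 it ran from 389 to 428 CPM under sgNC, 266 to 374 under sgP1, 299 to 571 under sgP2 and 87.6 to 115 under sgDual. ANPEP and VIL1 made up most of it there too, at means of 297 and 88.5 CPM under sgNC and 30.4 and 39.0 under sgDual. CDX2 went the other way, with means of 22.95 CPM under sgNC and 32.9 under sgDual. The other enterocyte markers averaged under 1 CPM in every ASPC1 group. The summed level of 7 hepatocyte markers moved in different directions. It ran from 45.5 to 47.4 CPM in Panc10.05 NC, 18.8 to 22.4 under P1-a2 and 39.9 to 41.3 under P2-a8, and in BxPC3 from 1.07 to 1.86 in NC, 10.2 to 11.8 under P1-a2 and 15.9 to 16.6 under P2-a8. In ASPC1 it ran from 51.3 to 62.3 CPM under sgNC, 43.1 to 57.5 under sgP1, 42.9 to 52.6 under sgP2 and 15.9 to 21.4 under sgDual. TTR and CDX1 had 0 counts in every library of all 3 lines, SI in Panc10.05 and BxPC3, and CDX2 in Panc10.05. The part of these markers in the results below was not tested. In bulk RNA, more cells that transcribe a gene and more RNA per cell cannot be told apart.

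Promoter sequence was available for 7 of the 10 genes, in 10 windows of 300 bases (250 before and 50 after a RefSeq transcript start, GRCh38.p14). The windows were searched on both strands for CAAAGTCCA, a core of the HNF4 type, exactly and with at most 1 mismatch. They were also searched for CAAAGGTCA, part of a direct repeat shared by several nuclear receptors, exactly only. CIDEB, CIDEC and MTTP each had a match with at most 1 mismatch in a window of an internal start. The windows of their first starts held no match. The MTTP match lies past chr4:99574706, the last base before an annotated exon in its window. The matches are shown within 30 bases, read along the gene's strand, with the matched 9 bases in capitals. They are given because these 3 genes are among those that changed when HNF4A was induced.
CIDEB, 55 bases before the start (chr14:24308013-24308042, minus strand): tccctcccctTGGACTTTGcccttcttact
CIDEB, 19 bases before the start (chr14:24307978-24308007, minus strand): ggcaggggggcCAGAGTCCAggcttgactc
CIDEC, 70 bases before the start (chr3:9878863-9878892, minus strand): cagcgtaaagTGGACTCTGtccccatggac
MTTP, 64 bases before the start (chr4:99574750-99574779, plus strand): gtcctgatttTGGAGTTTGgagtctgacct
The first CIDEB match is the exact core read on the opposite strand. Of all 35116 promoter windows of this length, 0.384% held the exact core, 6.97% held it with at most 1 mismatch and 0.407% held CAAAGGTCA exactly, which none of the 10 windows held. A match is a description of letters and not a measured binding site.

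The windows of MOGAT3 and CREB3L3 held no match to these motifs as searched. No mismatch was allowed for CAAAGGTCA, so near matches to it were not listed for any gene. The bases before their first annotated exon are given because MOGAT3 changed in all 3 lines and CREB3L3 was the highest of the 10 in ASPC1.
MOGAT3 (chr7:101201039-101201286, minus strand): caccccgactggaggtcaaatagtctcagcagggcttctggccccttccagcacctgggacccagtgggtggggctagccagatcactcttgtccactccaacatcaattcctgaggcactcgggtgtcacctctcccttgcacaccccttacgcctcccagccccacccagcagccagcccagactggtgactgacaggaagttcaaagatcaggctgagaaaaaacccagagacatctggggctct
CREB3L3 (chr19:4153381-4153600, plus strand): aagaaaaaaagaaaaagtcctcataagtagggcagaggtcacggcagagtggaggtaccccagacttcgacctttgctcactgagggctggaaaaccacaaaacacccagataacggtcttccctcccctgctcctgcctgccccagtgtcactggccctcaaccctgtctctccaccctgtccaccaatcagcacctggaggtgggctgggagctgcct
No match says only that the searched letters are not in the window.

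Tested genes that changed were mostly higher with either isoform in the induced lines and lower with the guides aimed at both isoforms in ASPC1. In Panc10.05, 5 of 7 tested genes were higher and 1 lower under P1-a2 than in NC at an adjusted p under 0.05, where 62% of all tested genes passed that threshold. Under P2-a8 it was also 5 higher and 1 lower, against 46.2% of all genes. In BxPC3, 7 of 8 were higher and 1 lower under P1-a2 (32% of all genes passed), and 4 of 8 were higher under P2-a8 (6.99% of all genes). These counts are partly fixed by the filter on low counts. MOGAT2 and CIDEC in Panc10.05 and CIDEC in BxPC3 had 0 counts in NC and passed it only through the induced groups. Such a gene, once tested, could not be lower than NC. In BxPC3 NC, MOGAT2, MOGAT3 and CREB3L3 were near 0 as well, at means of 0.0273, 0.0744 and 0.125 CPM. In Panc10.05 NC, CIDEB and CREB3L3 were too, at means of 0.1035 and 0.205 CPM. These genes also passed the filter only through the induced groups, so they had little room to be lower than NC. In ASPC1, 7 of 8 were lower under sgDual than under sgNC (35.6% of all genes), 3 were lower under sgP1 (0.265% of all genes), and none passed under sgP2 (3.42% of all genes, and 3025 of all 16992 tested genes at an unadjusted p under 0.05). The 2 comparisons with NC in a line share its control libraries, as do the 3 with sgNC. The calls under sgP1 were of CIDEB, CIDEC and CREB3L3. Without sgNC replicate 2 none of the 8 genes passed, with log2 differences of -1.92 (adjusted p = 0.0822), -1.19 (adjusted p = 0.0634) and -0.50 (adjusted p = 0.419) for these 3, and without sgNC replicate 1 CIDEB and CIDEC passed.

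**Figure D1:**
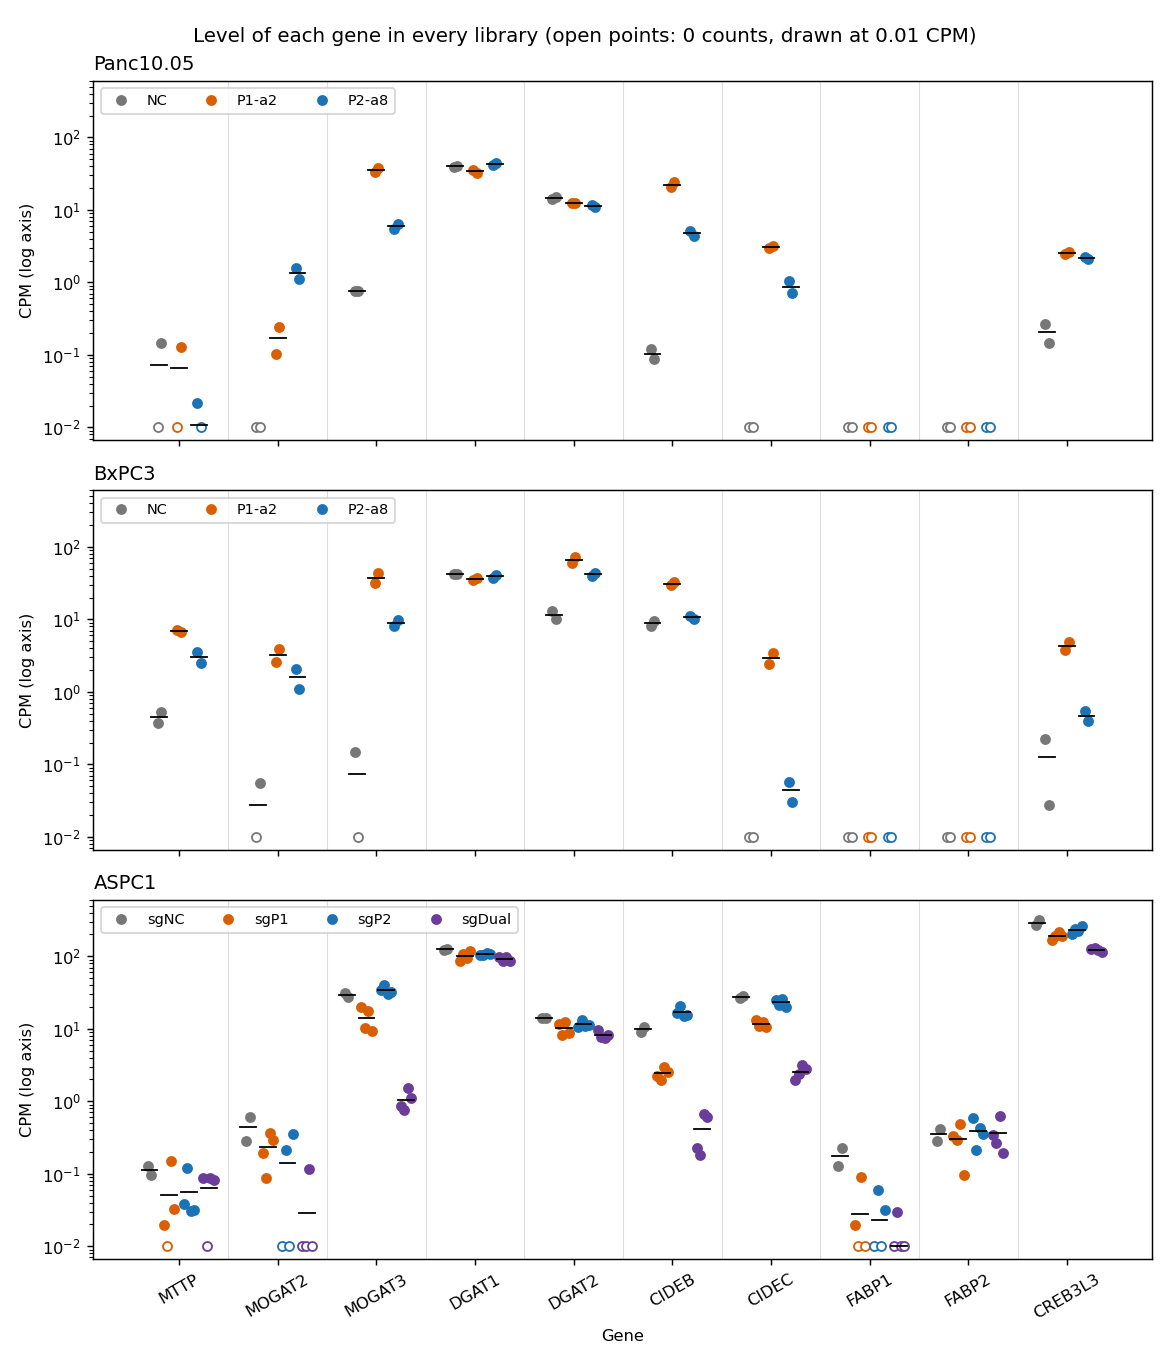
Level of the 10 genes in each of the 26 libraries, in CPM on a log axis, with one panel per cell line, points for libraries and bars for group means, and open points for libraries with 0 counts drawn at 0.01 CPM. MOGAT3, CIDEB and CIDEC are higher, within each induced line, in every library with an induced isoform than in both control libraries, and lowest under sgDual in ASPC1, while DGAT1 stays between 31.98 and 44.4 CPM in all 12 induced-line libraries.

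MOGAT3, a monoacylglycerol acyltransferase of human intestine (chr7:101195007-101201038, minus strand), rose with either isoform in both induced lines, more with P1-a2, and fell under sgDual in ASPC1. In Panc10.05 it was at 0.769 and 0.753 CPM in NC, 33.4 and 37.8 under P1-a2, and 5.53 and 6.37 under P2-a8. In BxPC3 it was at 0.149 and 0 CPM in NC, 31.5 and 43.2 under P1-a2, and 8.12 and 9.86 under P2-a8. No library of one group overlapped another group in either line, and P1-a2 was highest in both. The rise over NC was 5.54 ± 0.15 on the log2 scale under P1-a2 (adjusted p = 1.40e-30) and 2.95 ± 0.18 under P2-a8 (adjusted p = 1.91e-17) in Panc10.05. In BxPC3, where the controls hold only 4 counts, the summed counts gave 600-fold (95% exact counting interval 234 to 2205) under P1-a2 and 142-fold (55.3 to 524) under P2-a8. Relative to P2-a8, MOGAT3 under P1-a2 was 6.02-fold higher in Panc10.05 (log2 2.59 ± 0.10, adjusted p = 3.40e-23) and 4.17-fold higher in BxPC3 (log2 2.06 ± 0.21, adjusted p = 0.000533).

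In ASPC1, MOGAT3 stood at 30.9 and 27.3 CPM under sgNC. Under sgDual it was at 0.861 and 1.502 CPM with sgDual2 and at 0.746 and 1.12 with sgDual3, which is 4.06% and 3.20% of the sgNC mean. The log2 difference was -4.78 ± 0.31 (adjusted p = 5.00e-07). Under sgP1 it was at 19.9 and 17.4 CPM with sgP1E and at 10.13 and 9.30 with sgP1J, all below the sgNC libraries, and the difference did not pass with both guides pooled (log2 -1.03 ± 0.26, adjusted p = 0.166). The guides themselves differed, with sgP1E above sgP1J by 0.94 ± 0.16 (adjusted p = 0.00173). With only 1 of the guides in the fit, or in DESeq2, the difference from sgNC passed, and over all alternatives its adjusted p ran from 0.000217 to 0.800. Under sgP2 the 4 libraries lay between 30.02 and 39.9 CPM and overlapped sgNC. MOGAT3 was 2.39-fold higher under sgP2 than under sgP1 (log2 1.26 ± 0.22, adjusted p = 0.00887), a call that was lost without guide sgP2G (adjusted p = 0.0572), while HNF4A RNA itself averaged 86.5 CPM under sgP2 and 129 under sgP1 (log2 -0.58 ± 0.31, adjusted p = 0.343).

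MOGAT2, the monoacylglycerol acyltransferase best known from small intestine (chr11:75717819-75732958, plus strand), favoured P2-a8 over P1-a2 in Panc10.05 and not in BxPC3. In Panc10.05 it had 0 counts in both NC libraries, 4 and 11 under P1-a2, and 73 and 39 under P2-a8. Against a floor of 3 counts over the NC libraries, it was at least 4.48-fold higher under P1-a2 and at least 34.5-fold higher under P2-a8. In Panc10.05 the log2 difference of P1-a2 from P2-a8 was -2.91 ± 0.43 (adjusted p = 4.03e-07), and the groups did not overlap. In BxPC3 the order was the other way: 0 and 2 counts in NC, 82 and 143 under P1-a2, and 73 and 36 under P2-a8. The ratio to NC was 104 (28.4 to 862) under P1-a2 and 51.2 (13.8 to 428) under P2-a8. The BxPC3 isoforms differed by 1.01 ± 0.33 on the log2 scale, just short of the threshold (adjusted p = 0.0508), and passed it in 7 of 10 alternatives.

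In ASPC1, MOGAT2 had 9 and 19 counts under sgNC, 3 to 12 under sgP1 and 4 in 1 sgDual library with 0 in the other 3. The fall under sgDual passed (log2 -3.80 ± 1.11, adjusted p = 0.0157) and was lost without sgNC replicate 2 or without guide sgDual3 (largest adjusted p = 0.139). Under sgP2 it had 0 counts in both sgP2D libraries and 7 and 11 with sgP2G. That guide difference did not pass (adjusted p = 0.168) except without the filter on low counts or with the replicate number as a block.

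DGAT1 and DGAT2 are the 2 enzymes of the last acylation step and are unrelated in sequence. DGAT1 (chr8:144314584-144326910, minus strand) lay between 32.0 and 44.4 CPM in all 12 libraries of the induced lines. In Panc10.05 it was at 39.5 and 40.2 CPM in NC, 32.0 and 36.0 under P1-a2, and 42.0 and 44.4 under P2-a8. In BxPC3 it was at 42.3 and 42.5 CPM in NC, 35.4 and 37.2 under P1-a2, and 37.6 and 41.3 under P2-a8. It fell under P1-a2 in Panc10.05 (log2 -0.23 ± 0.07, adjusted p = 0.00700) and in BxPC3 (log2 -0.22 ± 0.07, adjusted p = 0.0376). The BxPC3 call was lost in 5 of 10 alternatives, and the Panc10.05 call without P1-a2 replicate 2. P1-a2 was also below P2-a8 in Panc10.05 (log2 -0.35 ± 0.07, adjusted p = 0.000145). In ASPC1, DGAT1 averaged 124 CPM under sgNC, 102 under sgP1, 107 under sgP2 and 91.5 under sgDual, and fell under sgDual (log2 -0.44 ± 0.10, adjusted p = 0.00304).

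DGAT2 (chr11:75759512-75801535, plus strand) lies 26.6 kb from MOGAT2 on the same strand. It rose in BxPC3 alone among the induced lines. There it was at 13.02 and 9.97 CPM in NC, 60.5 and 72.2 under P1-a2, and 39.8 and 44.2 under P2-a8, with no overlap. The rise was 2.54 ± 0.13 under P1-a2 (adjusted p = 1.12e-06) and 1.88 ± 0.13 under P2-a8 (adjusted p = 3.71e-05), and P1-a2 exceeded P2-a8 by 0.66 ± 0.12 (adjusted p = 0.00406). In Panc10.05 it was at 13.98 and 15.1 CPM in NC, 12.4 and 12.6 under P1-a2, and 11.8 and 11.04 under P2-a8. The fall under P2-a8 (log2 -0.34 ± 0.10, adjusted p = 0.00464) was lost without NC replicate 2 or P2-a8 replicate 2. In ASPC1 it averaged 14.02 CPM under sgNC and 8.25 ± 0.92 (SD over 4 libraries of 2 guides) under sgDual and fell (log2 -0.77 ± 0.16, adjusted p = 0.00150).

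MTTP, the transfer protein that lipidates apolipoprotein B (chr4:99563761-99623999, plus strand), was measurable in BxPC3. It had 10 and 19 counts in NC, 225 and 248 under P1-a2, and 122 and 81 under P2-a8, or 0.372 and 0.519, 7.06 and 6.70, and 3.49 and 2.48 CPM. The 3 groups did not overlap. MTTP rose 15.0-fold under P1-a2 (log2 3.91 ± 0.26, adjusted p = 1.21e-06) and 6.53-fold under P2-a8 (log2 2.71 ± 0.28, adjusted p = 0.000157), and P1-a2 exceeded P2-a8 by 1.20 ± 0.20 (adjusted p = 0.00149). In Panc10.05 no library held more than 6 counts, and the ratio of P1-a2 to NC was 1.08 with a counting interval from 0.274 to 4.46. In ASPC1 no library held more than 5 counts, so a fall could not have been detected at this depth.

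CIDEB and CIDEC encode CIDE proteins of lipid droplets, CIDEB being the liver and intestine member that also acts in lipoprotein lipidation and CIDEC the member best known from fat cells. CIDEB (chr14:24305096-24311430, minus strand) was at 0.120 and 0.0869 CPM in Panc10.05 NC, 20.4 and 24.0 under P1-a2, and 5.11 and 4.40 under P2-a8. In BxPC3 it was already present in NC, at 8.14 and 9.40 CPM, and was at 29.96 and 32.5 under P1-a2 and 11.2 and 10.0 under P2-a8. The rise over NC in Panc10.05 was 7.69 ± 0.23 under P1-a2 (adjusted p = 7.38e-29) and 5.47 ± 0.29 under P2-a8 (adjusted p = 2.41e-19). In BxPC3 it was 1.83 ± 0.11 under P1-a2 (adjusted p = 5.37e-07), and the value under P2-a8 was 0.27 ± 0.11 (adjusted p = 0.211). P1-a2 exceeded P2-a8 by 2.22 ± 0.12 in Panc10.05 and by 1.56 ± 0.11 in BxPC3.

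In ASPC1, CIDEB had the largest difference between sgP2 and sgP1 of the 8 tested genes. It was at 9.16 and 10.4 CPM under sgNC, between 1.98 and 2.95 under sgP1, between 15.0 and 20.4 under sgP2, and between 0.179 and 0.664 under sgDual, with no overlap between any 2 groups. It fell under sgP1 (log2 -2.02 ± 0.24, adjusted p = 0.00247), to 26.5% of sgNC with sgP1E and 23.0% with sgP1J. Under sgP2 it stood at 162% with sgP2D and 184% with sgP2G, a difference of 0.79 ± 0.25 that did not pass (adjusted p = 0.0947) but did in DESeq2 and with only those groups in the fit. It was 7.01-fold higher under sgP2 than under sgP1 (log2 2.81 ± 0.22, adjusted p = 7.77e-06). Under sgDual it fell (log2 -4.53 ± 0.29, adjusted p = 1.23e-07).

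The exons of CIDEB share 61.1% of their 3198 bases with NOP9 and 39.9% with LTB4R2, both on the opposite strand. The kit keeps the strand, but the strand setting of the counting is not given in the sources used here, so reads of these genes may not have been separated. NOP9 lay between 61.1 and 69.4 CPM in the 6 Panc10.05 libraries, including the NC libraries where CIDEB had 5 and 3 counts. The NOP9 difference under P1-a2 was 0.03 ± 0.07 on the log2 scale in that line (adjusted p = 0.751) and 0.37 ± 0.07 in BxPC3 (adjusted p = 0.00159), and under sgDual in ASPC1 it was -0.62 ± 0.12 (adjusted p = 0.000926). Between sgP2 and sgP1, where CIDEB differed 7.01-fold, NOP9 differed by 0.15 ± 0.10 (adjusted p = 0.445). LTB4R2 lay between 4.53 and 8.39 CPM in Panc10.05, where it was higher under P1-a2 than in NC (log2 0.46 ± 0.14, adjusted p = 0.00587) and than under P2-a8 (log2 0.61 ± 0.14, adjusted p = 0.000575), as CIDEB was. In BxPC3 its difference under P1-a2 was 0.24 ± 0.12 (adjusted p = 0.145). In ASPC1 it lay between 1.28 and 2.61 CPM and was lower under sgDual than under sgP2 (log2 -0.44 ± 0.17, adjusted p = 0.0411), with values of -0.49 ± 0.20 for sgDual against sgNC (adjusted p = 0.0675) and 0.17 ± 0.16 for sgP2 against sgP1 (adjusted p = 0.633). The part of shared reads in the CIDEB values was not tested.

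CIDEC (chr3:9866711-9880254, minus strand) had 0 counts in both NC libraries of each induced line. In Panc10.05 it had 116 and 148 counts under P1-a2 and 49 and 25 under P2-a8, at least 78.9-fold and at least 22.8-fold higher than the floor of 3 counts over the NC libraries. In BxPC3 it had 77 and 129 counts under P1-a2, at least 63.3-fold higher, but only 2 and 1 under P2-a8. The ratio of P1-a2 to P2-a8 was 67.4 in BxPC3 (counting interval 22.8 to 330) and 3.47 in Panc10.05 (log2 1.79 ± 0.24, adjusted p = 7.88e-08). In ASPC1 it was at 26.8 and 28.2 CPM under sgNC, between 10.7 and 13.05 under sgP1, between 20.1 and 25.7 under sgP2, and between 1.95 and 3.18 under sgDual. It fell under sgP1 (log2 -1.22 ± 0.14, adjusted p = 0.00145) and under sgDual (log2 -3.42 ± 0.15, adjusted p = 4.34e-09), and was 1.96-fold higher under sgP2 than under sgP1 (adjusted p = 0.000511).

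FABP1 and FABP2, the liver and intestinal fatty acid binding proteins (chr2:88122982-88128116 and chr4:119317250-119322390, both minus strand), had 0 counts in all 12 libraries of the induced lines. Those zeros allow up to 3 counts over the 2 libraries of a group, counting error only. In ASPC1, FABP1 had 4 and 7 counts under sgNC and 0 to 3 in the other 12 libraries. FABP2 had 3 to 22 counts in the 14 ASPC1 libraries with all groups overlapping, and its difference under sgDual was 0.03 ± 0.54 on the log2 scale (adjusted p = 0.973).

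CREB3L3 encodes a membrane-bound transcription factor of the endoplasmic reticulum in liver and intestine that is released by cleavage and is known for regulating plasma triglyceride (chr19:4153601-4173054, plus strand). In Panc10.05 it was at 0.264 and 0.145 CPM in NC, 2.44 and 2.65 under P1-a2, and 2.26 and 2.11 under P2-a8. The rise was 3.58 ± 0.32 under P1-a2 (adjusted p = 4.68e-13) and 3.37 ± 0.33 under P2-a8 (adjusted p = 1.70e-11), and the isoforms were 0.22 ± 0.21 apart (adjusted p = 0.412). In BxPC3 it was at 0.223 and 0.0273 CPM in NC, 3.80 and 4.84 under P1-a2, and 0.543 and 0.398 under P2-a8. There it rose under P1-a2 by 5.24 ± 0.46 (adjusted p = 9.04e-06), the value under P2-a8 was 2.05 ± 0.64 (adjusted p = 0.0856), and P1-a2 exceeded P2-a8 by 3.18 ± 0.35 (adjusted p = 0.000145).

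In ASPC1, CREB3L3 was at 268 and 312 CPM under sgNC, between 169 and 215 under sgP1, between 202 and 260 under sgP2, and between 113 and 131 under sgDual. The sgNC libraries lay above all others. It fell under sgDual (log2 -1.23 ± 0.10, adjusted p = 1.26e-06), to 43.0% of sgNC with sgDual2 and 42.1% with sgDual3. The fall under sgP1 (log2 -0.61 ± 0.11, adjusted p = 0.0255) was lost in 4 of 14 alternatives, with adjusted p up to 0.419. The value under sgP2 was -0.33 ± 0.11 (adjusted p = 0.104).

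**Figure D2:**
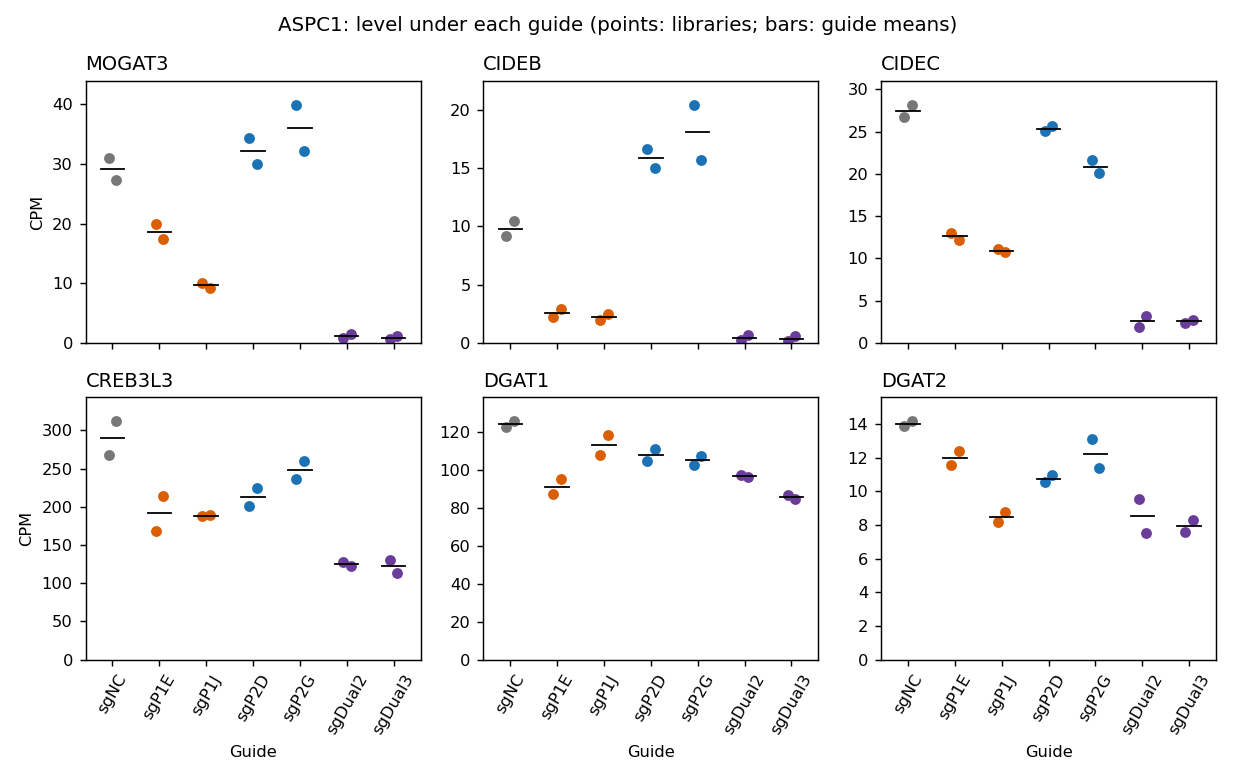
CPM of MOGAT3, CIDEB, CIDEC, CREB3L3, DGAT1 and DGAT2 in ASPC1 under the control and each of the 6 guides, with points for the 2 libraries of a guide and bars for their mean. CIDEB and CIDEC are low with both P1 guides and not with the P2 guides, MOGAT3 differs between sgP1E and sgP1J, and the sgDual libraries lie below the control libraries for all 6 genes.

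Guides against the same target were compared directly. Between sgP1E and sgP1J, 3 of 8 tested genes differed (14.5% of all genes did): MOGAT3 and DGAT2 were higher with sgP1E, DGAT2 by 0.50 ± 0.12 (adjusted p = 0.0151), and DGAT1 was lower with sgP1E (log2 -0.31 ± 0.07, adjusted p = 0.0114). The DGAT1 and DGAT2 calls were each lost without either of 2 libraries. None of the 8 passed between sgP2D and sgP2G (1.69% of all genes, 1660 of 16992 at an unadjusted p under 0.05) or between sgDual2 and sgDual3 (0.883% of all genes, 1423 at an unadjusted p under 0.05). Against the other targets, sgDual was lower than sgP1 for 5 of 8 genes (38.3% of all genes passed) and lower than sgP2 for 6 (46.4%). Among these, MOGAT2 against sgP1 was lost in 12 of 17 alternatives, DGAT1 against sgP2 in 10 of 18 and DGAT2 against sgP2 in 2 of 18. In turn, sgP2 was higher than sgP1 for 3 genes, MOGAT3, CIDEB and CIDEC (4.3% of all genes).

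**Figure D3:**
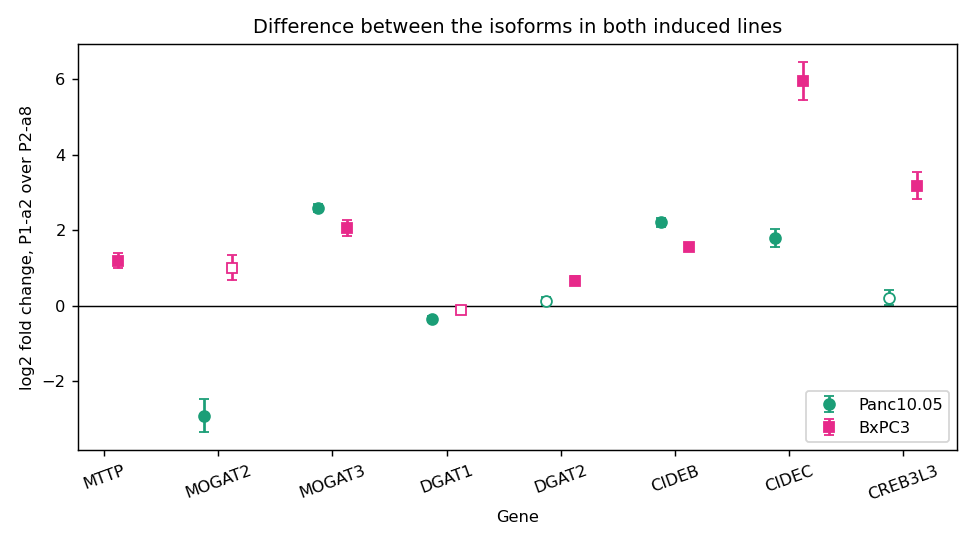
Log2 fold change of P1-a2 over P2-a8 with its standard error for the 8 genes tested in at least one induced line, circles for Panc10.05, squares for BxPC3, filled where the adjusted p is under 0.05. MOGAT3, CIDEB and CIDEC lie above 0 in both lines, MOGAT2 lies at -2.91 in Panc10.05 and 1.01 in BxPC3, and CREB3L3 lies at 0.22 and 3.18.

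Between the isoforms, P1-a2 gave higher levels for 3 of 7 tested genes and lower for 2 in Panc10.05 (46.9% of all genes passed), and 6 of 8 were higher in BxPC3 (22.5%). The size of this isoform difference was compared between the lines in a joint fit of the 12 libraries, in which line, dose, control construct and sequencing project change together and cannot be told apart. It differed for 5 of 8 genes (22.3% of all genes). The Panc10.05 value minus the BxPC3 value was -3.91 ± 0.57 for MOGAT2 (adjusted p = 4.45e-05), -2.96 ± 0.40 for CREB3L3 (adjusted p = 1.01e-05), -4.16 ± 0.67 for CIDEC (adjusted p = 0.000103), -0.52 ± 0.15 for DGAT2 (adjusted p = 0.0144) and 0.67 ± 0.17 for CIDEB (adjusted p = 0.00503). The DGAT2 call was lost in 4 of 12 alternatives and the CIDEB call in 2. The CIDEC value rests on 3 counts under P2-a8 in BxPC3. HNF4A itself differed between the lines in the same contrast, by -1.33 ± 0.21 (adjusted p = 0.000171).

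The response to P1-a2 against NC differed between the lines for 4 of 8 genes (36.4% of all genes), and that to P2-a8 for 4 (23.5%). CIDEB responded more in Panc10.05, by 5.87 ± 0.31 under P1-a2 (adjusted p = 9.86e-13) and 5.19 ± 0.33 under P2-a8 (adjusted p = 8.61e-11), from a control level that was lower there. DGAT2 responded less in Panc10.05, by -2.75 ± 0.16 under P1-a2 (adjusted p = 8.99e-12) and -2.22 ± 0.16 under P2-a8 (adjusted p = 1.02e-09). MOGAT3 also responded less in Panc10.05, by -3.59 ± 0.75 (adjusted p = 0.00138) and -4.13 ± 0.74 (adjusted p = 0.000760), where the BxPC3 controls hold 4 counts. The MTTP values, -3.81 ± 1.37 (adjusted p = 0.0358) and -4.86 ± 1.66 (adjusted p = 0.0395), rest on at most 6 counts a library in Panc10.05. Without Panc10.05 NC replicate 2 the first of them, for MTTP under P1-a2, became 0.48 (adjusted p = 0.769), and the calls were lost in 3 and 4 of 12 alternatives. CIDEC could not be compared against NC, since both lines' controls hold 0 counts.

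Levels were compared between the genes per kb of annotated exon. In ASPC1 sgNC, CREB3L3 was highest at 108 ± 11.7 CPM per kb (SD, n = 2), followed by DGAT1 at 30.1 ± 0.476. CIDEC followed at 14.3 ± 0.510 and MOGAT3 at 11.9 ± 1.05, a pair whose libraries did not overlap, then CIDEB at 3.06 ± 0.283 and DGAT2 at 1.77 ± 0.0253. FABP2 at 0.142 ± 0.0377 and MOGAT2 at 0.108 ± 0.0555 overlapped, FABP1 at 0.0711 ± 0.0281 overlapped MOGAT2, and MTTP was lowest at 0.0207 ± 0.00398. In Panc10.05 under P1-a2 the order was led by MOGAT3 at 14.6 ± 1.26 CPM per kb, DGAT1 at 8.23 ± 0.683 and CIDEB at 6.95 ± 0.803, and in NC by DGAT1 at 9.64 ± 0.116 with MOGAT3 at 0.312 ± 0.00439. In BxPC3 under P1-a2, MOGAT3 at 15.3 ± 3.40 CPM per kb stood above CIDEB at 9.76 ± 0.555, while CIDEB, DGAT1 at 8.78 ± 0.316 and DGAT2 at 8.39 ± 1.04 were neighbours of which DGAT2 overlapped DGAT1.

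Among the other genes of these pathways, most tested members of the lipoprotein assembly list of 14 genes were higher with either isoform than in NC. Under P1-a2, 8 of 12 tested members were higher and 1 lower in Panc10.05, where 62% of all genes passed in either direction, and 12 of 13 were higher in BxPC3 (32% of all genes). Under P2-a8, 8 of 12 were higher and 1 lower in Panc10.05 (46.2% of all genes) and 8 of 13 were higher in BxPC3 (6.99%). Of these tested members, 5 in Panc10.05 and 6 in BxPC3 had 0 counts in NC. They passed the filter on low counts only through the induced groups, so they could not be lower than NC. APOA1 also passed only through the induced groups, with 0 and 5 counts in Panc10.05 NC and 0 and 2 in BxPC3 NC. The counts are therefore partly fixed by the filter. The median log2 fold change, with genes at 0 counts in NC set to their lower bound, was 1.96, 3.51, 1.37 and 0.91 in that order, where the median of all genes lay between -0.01 and 0.02. APOA4, an apolipoprotein of chylomicrons, had 0 counts in NC of both lines and was at least 1846-fold higher under P1-a2 and at least 251-fold higher under P2-a8 in BxPC3, and at least 62.9-fold higher under P2-a8 in Panc10.05. PRAP1, a secreted intestinal protein that aids lipid transfer by MTTP, was at least 308-fold higher under P1-a2 and at least 249-fold higher under P2-a8 in BxPC3. APOA1, the main protein of high density lipoprotein, averaged 5.94 CPM under P1-a2 and 35.6 under P2-a8 in Panc10.05 (log2 difference -2.56 ± 0.37, adjusted p = 0.0116) but 69.7 and 7.27 in BxPC3 (3.26 ± 0.12, adjusted p = 1.41e-07). In ASPC1, 3 of 8 tested members were lower and 1 higher under sgDual (35.6% of all genes passed), with PRAP1 lower (log2 -3.50 ± 0.41, adjusted p = 3.33e-05). APOB, the protein onto which MTTP loads triglyceride, had 0 counts in NC of both induced lines. In BxPC3 it had 876 counts over the P1-a2 libraries and 213 over the P2-a8 libraries, at least 269-fold and at least 66.7-fold higher. In Panc10.05 it had 21 and 14, at least 6.28-fold and at least 4.32-fold higher, and in ASPC1 it had 0 counts in all 14 libraries.

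The counts of the other lists under P1-a2 stand beside the 62% of all genes that passed in Panc10.05 and the 32% in BxPC3, and several are near those shares. Of the lipid droplet list, 2 of 15 tested genes were higher and 7 lower under P1-a2 in Panc10.05, with G0S2, an inhibitor of the lipase ATGL, higher by 4.90 ± 0.19 (adjusted p = 3.81e-19) and LIPE, hormone-sensitive lipase, lower (log2 -2.90 ± 0.18, adjusted p = 1.56e-17), and 6 of 14 were higher and 1 lower in BxPC3. Of the uptake and activation list, 5 of 11 were higher and 3 lower in Panc10.05 and 5 of 11 higher and 4 lower in BxPC3 under P1-a2, where ACSL5, an acyl-CoA synthetase, rose by 1.38 ± 0.08 (adjusted p = 5.53e-07). ACSL5 fell under sgDual in ASPC1 (log2 -1.42 ± 0.21, adjusted p = 0.000217). Of the glycerol phosphate route, which builds triglyceride without monoacylglycerol, 3 of 11 were higher and 5 lower in Panc10.05 and 3 of 11 higher in BxPC3 under P1-a2. Of the other lipid carriers, 4 of 5 were higher in Panc10.05 and 3 of 4 in BxPC3 under P1-a2. Among them RBP2, a retinol carrier of enterocytes, had 0 counts in NC and was at least 256-fold higher under P1-a2 in BxPC3. RBP2 too passed the filter on low counts only through the induced groups, as did FABP6 in Panc10.05, with 1 and 2 counts in NC. Of the other CREB3 family genes, 2 of 3 were lower in Panc10.05, and 1 of 4 was higher and 2 lower in BxPC3, under P1-a2. CREB3L1 fell in BxPC3 under P1-a2 (log2 -1.498 ± 0.40, adjusted p = 0.0457) and rose under sgDual in ASPC1 by 3.21 ± 0.42 (adjusted p = 0.000153).

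**Figure D4:**
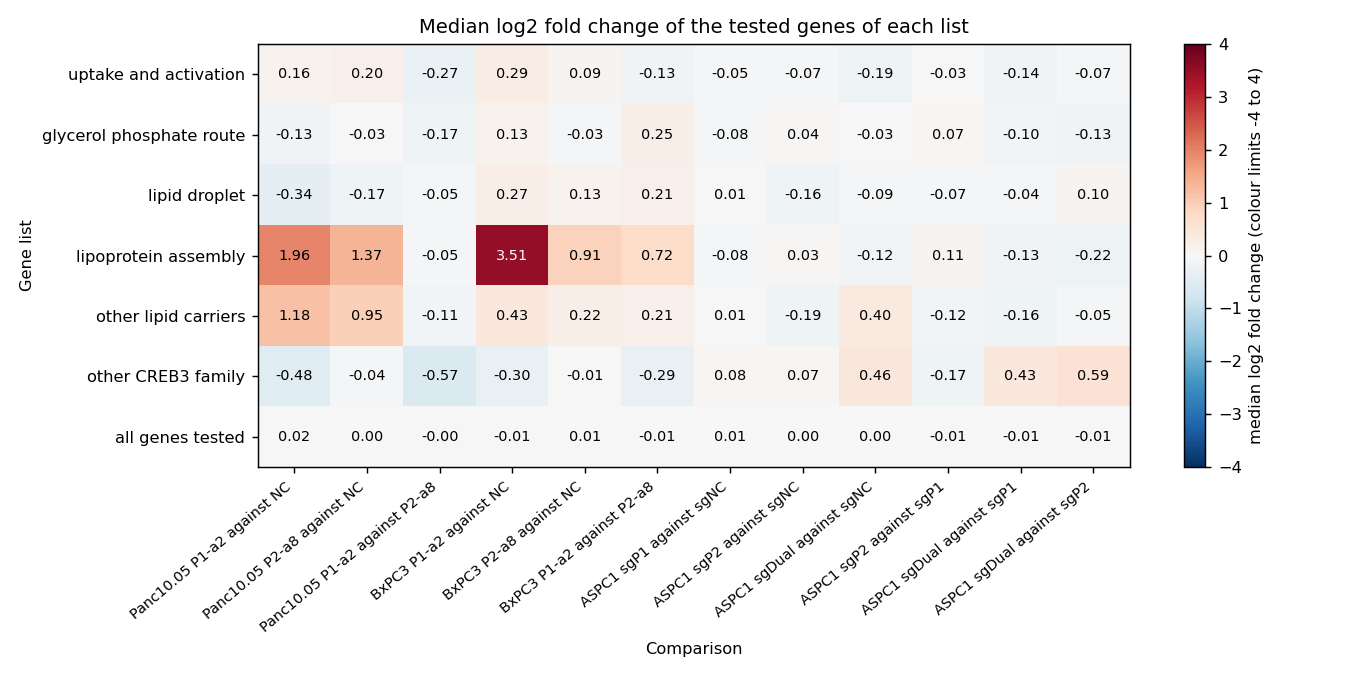
Median log2 fold change of the tested genes of 6 pathway lists and of all genes (rows) in the 12 comparisons within a line (columns), with genes at 0 counts in a group set to their lower bound. The lipoprotein assembly row reaches 3.51 under P1-a2 in BxPC3, and the row of all genes lies between -0.01 and 0.02.

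The genes whose log2 CPM was most like that of CREB3L3 over the 26 libraries, after removing each table's mean, were NOSTRIN (Pearson's r = 0.959), TRIM15 (0.934), TM4SF5 (0.933), ZDHHC9 (0.931) and COBL (0.929), out of 14523 genes tested in all 3 tables. For MTTP, over the 6 BxPC3 libraries and 17635 genes, they included PRSS3 (0.998), APOA1 (0.996), HSD3B1 (0.996) and ACOT2 (0.996). These values are descriptions: the libraries share groups and tables, and among so many genes a few libraries give high values readily.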

How the data were processed

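Poly(A) RNA of the 26 libraries was sequenced with a strand-keeping kit. The authors deposited whole-number gene counts in 3 tables, 1 per cell line. Per the submitters' processing notes, STAR 2.7.9a, cutadapt 1.16, featureCounts 1.6.3, DESeq2 1.36.0 and the build GRCh38 were used. The annotation and strand setting are not given in the sources used here.

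Groups came from the sample labels. Counts were filtered with filterByExpr, scaled by TMM and tested per table with edgeR 4.0.16 (R 4.3.3, limma 3.58.1), using its quasi-likelihood test with Benjamini-Hochberg adjustment over all genes of the table and a threshold of 0.05. Fold changes are given with standard errors derived from the test, as the absolute log2 fold change divided by the square root of its F statistic. The 12 comparisons within a line used all groups of that table, the 3 guide comparisons a fit with each guide as a group, and the 3 line comparisons a joint fit of the 12 induced libraries. CPM use the TMM-scaled library sizes. A gene at 0 counts in a group was compared with a floor of 3 counts over that group, and small counts were given exact 95% intervals for the ratio of counts, which cover counting error only. Positions, exon lengths and overlaps are from GENCODE 29, and promoter windows from RefSeq (GRCh38.p14). The test was tested on simulated data first.

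The 10 genes and the pathway and marker lists were chosen with earlier results of these data known. All 10 genes are described. From each pathway list, the text draws on genes with an adjusted p under 0.05 whose average level reached 1 CPM across the compared groups, at most the 2 with the largest change per list and comparison. APOB was added after its values were seen. Alternatives were RLE or total-count scaling, no filter on low counts, a fold limit, DESeq2 1.42.0, fits of only the groups compared, a replicate block, and leaving out each library or guide. One gene that the rule for most alike genes selected is not reported here.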

Additional observations from a re-analysis of the deposited data

Results flagged for a closer look

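In 1 of 24 groups of 4 ASPC1 libraries, one library stood far from the others: MOGAT2 was at 0.116 CPM (4 counts) in sgDual2 replicate 2 and at 0 in the other 3 sgDual libraries. Chance flags about 1 in 20 such groups.

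The other 13 values are differences between Panc10.05 and BxPC3, given as the Panc10.05 log2 fold change minus the BxPC3 one and tested in the joint fit. For P1-a2 against NC they were -3.81 for MTTP, -3.59 for MOGAT3, -2.75 for DGAT2 and 5.87 for CIDEB. For P2-a8 against NC they were -4.86 for MTTP, -4.13 for MOGAT3, -2.22 for DGAT2 and 5.19 for CIDEB. For P1-a2 against P2-a8 they were -3.91 for MOGAT2, -0.52 for DGAT2, 0.67 for CIDEB, -4.16 for CIDEC and -2.96 for CREB3L3. The MTTP values rest on libraries with at most 6 counts, and the first changed sign without Panc10.05 NC replicate 2. Line, dose, control construct and sequencing project cannot be told apart in any of them.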

How the results depend on the processing

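Of the 75 calls of a gene in a comparison, 58 passed the threshold under every alternative run for them, and 1 changed sign: the MTTP line difference under P1-a2 against NC became 0.48 without Panc10.05 NC replicate 2, the top of a range from -8.17 to 0.48 when single libraries were left out. The number of the 10 genes called for sgP1 against sgNC was 3, and 5 without guide sgP1E and 5 without guide sgP1J. Leaving out single libraries gave 0 to 3, with 0 without sgNC replicate 2. For sgP2 against sgNC it was 0, and 1 (CIDEB) in DESeq2 and with only the groups compared. For sgP2 against sgP1 it was 3, and 5 without guide sgP1E. With a log2 limit of 1 it went from 6 to 3 for sgDual against sgP2, from 3 to 0 between sgP1E and sgP1J, and from 5 to 3 for the line difference between the isoforms. Between sgP2D and sgP2G it was 0, and 1 (MOGAT2) without the filter on low counts.

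Replicate numbers were not treated as pairs, because not every correlation between the deviations of same-numbered libraries exceeded 0.1 in any line. In Panc10.05 they lay between -0.012 and 0.007, and in BxPC3 between 0.073 and 0.131 (2 of 3 over the limit). In ASPC1 they lay between 0.077 and 0.339, where 15 of 21 exceeded it, so same-numbered ASPC1 libraries did deviate together in part. Every ASPC1 value under the limit involved an sgDual guide. Among the sgP1 and sgP2 guides and sgNC, all lay between 0.217 and 0.339. With the replicate number as a block, 1 gene (MOGAT2) was called between sgP2D and sgP2G, against 0 without it, and every other count stayed within 1.5 times. Low counts limit MTTP in Panc10.05 and ASPC1, MOGAT2 in ASPC1, CIDEC under P2-a8 in BxPC3, and FABP1 and FABP2 everywhere.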
